A study of Homo sapiens with 14 samples.

Results

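The ATF4 and unfolded protein response genes described here were 35 genes of the integrated stress response, of protein folding in the endoplasmic reticulum (ER) and of ER-associated degradation. They were chosen by name, by a rule that uses no measured value although earlier results of these data were known, and all 35 were listed in both deposited tables, out of 12200 genes with a p-value in either table and 10891 with one in both. The RNA came from 14 libraries of the established line teloHAEC, endothelial cells of the human aorta that were immortalised and bought from a repository. In the siRNA arm, 4 libraries from cells transfected with siRNA against CALCRL (si-CALCRL) were compared with 4 from cells given scrambled siRNA (si-scrambled), both by lipid reverse transfection and both lysed at 24 hours. In the deletion arm, 3 libraries from cells electroporated with Cas9 ribonucleoprotein and guides flanking an enhancer of CALCRL (CALCRL_enhancer_deletion) were compared with 3 from cells given Cas9 and a guide against HPRT (CRISPR control), both collected after 2 days. Every library of the deletion arm thus came from cells given Cas9 and a guide, and the labels name no selection of edited cells or clones. CALCRL encodes the calcitonin receptor-like receptor, which binds adrenomedullin at the endothelial surface.

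No value per library was used, since each deposited table gives 1 row per gene: a mean normalised count over the arm, a log2 fold change against control, its standard error (SE) and a DESeq2 adjusted p-value. Group means below were derived from the mean count and the fold change, and a call below means an adjusted p-value under 0.05. Nothing in the labels says whether the libraries of a group came from separate cultures, so p-values measure only the spread between these libraries. In the authors' deposited tables CALCRL was at -1.56 (SE 0.17) on the log2 scale under siRNA and -1.47 (SE 0.43) after deletion, both called. HPRT1, which the control guide targets, lay at -0.09 (SE 0.50) between deletion and control in the authors' deposited table, or 94.1% with an interval from 47.4% to 187%, so cutting in the control libraries was not shown by these values. Of 12 endothelial marker genes 11 were listed, among them CDH5, KDR and TEK, while PECAM1 was not. Of 5 fibroblast markers 0 were listed, and of 5 smooth muscle markers 1 was, SMTN. Of 4 leukocyte markers CD68 was listed in both arms and LCP1 in the siRNA arm only. After deletion CDH5 (-1.44, SE 0.35) and KDR (-1.05, SE 0.31), the genes of VE-cadherin and of a VEGF receptor, fell in the authors' deposited table. These 2 were 18.2% of the 11 endothelial markers, where 15.8% of all genes were called after deletion. The median of the 11 markers was -0.01, with 5 of 11 above 0. Whether fewer cells of a type or less RNA per cell lay behind any change here cannot be told apart in bulk RNA.

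When unfolded proteins collect in the ER, the membrane sensors PERK, IRE1 and ATF6 are activated. PERK phosphorylates the initiation factor eIF2, which lowers translation in general while favouring that of ATF4, a transcription factor of amino acid supply and stress genes. IRE1 (gene ERN1) splices the XBP1 transcript, and XBP1 and cleaved ATF6 raise genes of ER chaperones and of the machinery that returns misfolded proteins to the cytosol for degradation. Endothelial cells secrete much protein and are sensitive to this balance. ATF4, ATF6 and IRE1 are controlled largely after transcription, so their own transcript levels do not show their activity.

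The promoters of some members hold short elements by which these factors are known to act, and matches to them are shown here as description. Others, among them those of ATF4, DDIT3, TRIB3, PPP1R15A and PDIA4, held no match to any element searched. RefSeq promoters (GRCh38.p14, 250 bases before to 50 after a start) were matched for 33 of the 35 genes. The ER stress element, bound by ATF6 with NF-Y, was searched as CCAAT, any 9 bases and CCACG, on both strands, and was found in 5 members, against 0.0776% of 34796 promoters. Each line gives 30 bases around the match, on the strand on which the element reads, with the element in capitals.
XBP1 (chr22:28800597-28800626, minus strand): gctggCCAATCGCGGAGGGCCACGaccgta
CALR (chr19:12938379-12938408, minus strand): caccgaCCAATGATGGTCGACCACGcgtgg
CANX (chr5:179698773-179698802, plus strand): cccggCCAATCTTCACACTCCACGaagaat
PDIA6 (chr2:10812847-10812876, minus strand): ccggaCCAATGAGCCGCAGCCACGgcttgg
CRELD2 (chr22:49918549-49918578, minus strand): tatggcCCAATCCGAGTTCGCCACGagagg
The shorter second form of the element, ATTGG, any base and CCACG, was found in 3 members, against 0.0546% of promoters. In HYOU1 it occurred in 2 places, and the place farther from the start overlapped a match to TGACGTGG, the XBP1-type element that was found in this member alone and in 0.733% of promoters.
HERPUD1 (chr16:56932016-56932045, plus strand): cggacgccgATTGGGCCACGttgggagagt
SDF2L1 (chr22:21642105-21642134, minus strand): gagggttttgATTGGTCCACGcttccgagg
HYOU1 (chr11:119057264-119057293, plus strand): gcgcgtactcATTGGACCACGtcccaggcc
The composite element of C/EBP and ATF factors, through which ATF4 acts, was searched as TGATGNAAN and was found in 5 members, ASNS, CEBPG, CHAC1, HERPUD1 and PPP1R15B, against 3.63% of promoters.
ASNS (chr7:97872457-97872486, minus strand): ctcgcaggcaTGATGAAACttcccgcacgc
CHAC1 (chr15:40953251-40953280, minus strand): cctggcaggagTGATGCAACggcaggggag
A match is a run of letters, not a measured binding site.

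Under CALCRL siRNA, 0 of the 35 genes were called by the authors' DESeq2 Wald test, where 3.46% of all genes were. At an unadjusted p-value under 0.05 there were 5 members, which is 14.3% of them against 12.02% of all genes: XBP1 and PPP1R15B lower, and PDIA4, PDIA5 and SEL1L higher. In the authors' deposited table XBP1, the transcription factor made by IRE1-dependent splicing, was at -0.26 (SE 0.10, adjusted p-value 0.173), the lowest adjusted p-value of the 35. Its derived group means were 438 normalised counts with scrambled siRNA and 366 with siRNA against CALCRL. ATF4 had derived means of 2572 and 2399, and the authors' deposited table gave it -0.10 (SE 0.15). The median over the 35 genes was -0.02, against 0.00 over all genes tested, and the fold changes lay between -0.30 (ERN1) and 0.28 (PDIA5).

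These siRNA values were narrow enough to bound the response of most members. All 35 intervals of 95%, taken with a normal quantile, lay inside a log2 change of 1 in either direction. A Student t reference gives wider intervals, for which this bound was not computed. The lowest end was -0.81 for EDEM1, and the highest was 0.93 for EDEM2. At the median SE of the members, 0.13, a log2 change of about 0.42 would have been called, and at their smallest SE, 0.07, one of about 0.23. In the deletion arm the median SE of the members was 0.32 and the corresponding change was 0.84.

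**Figure D1:**
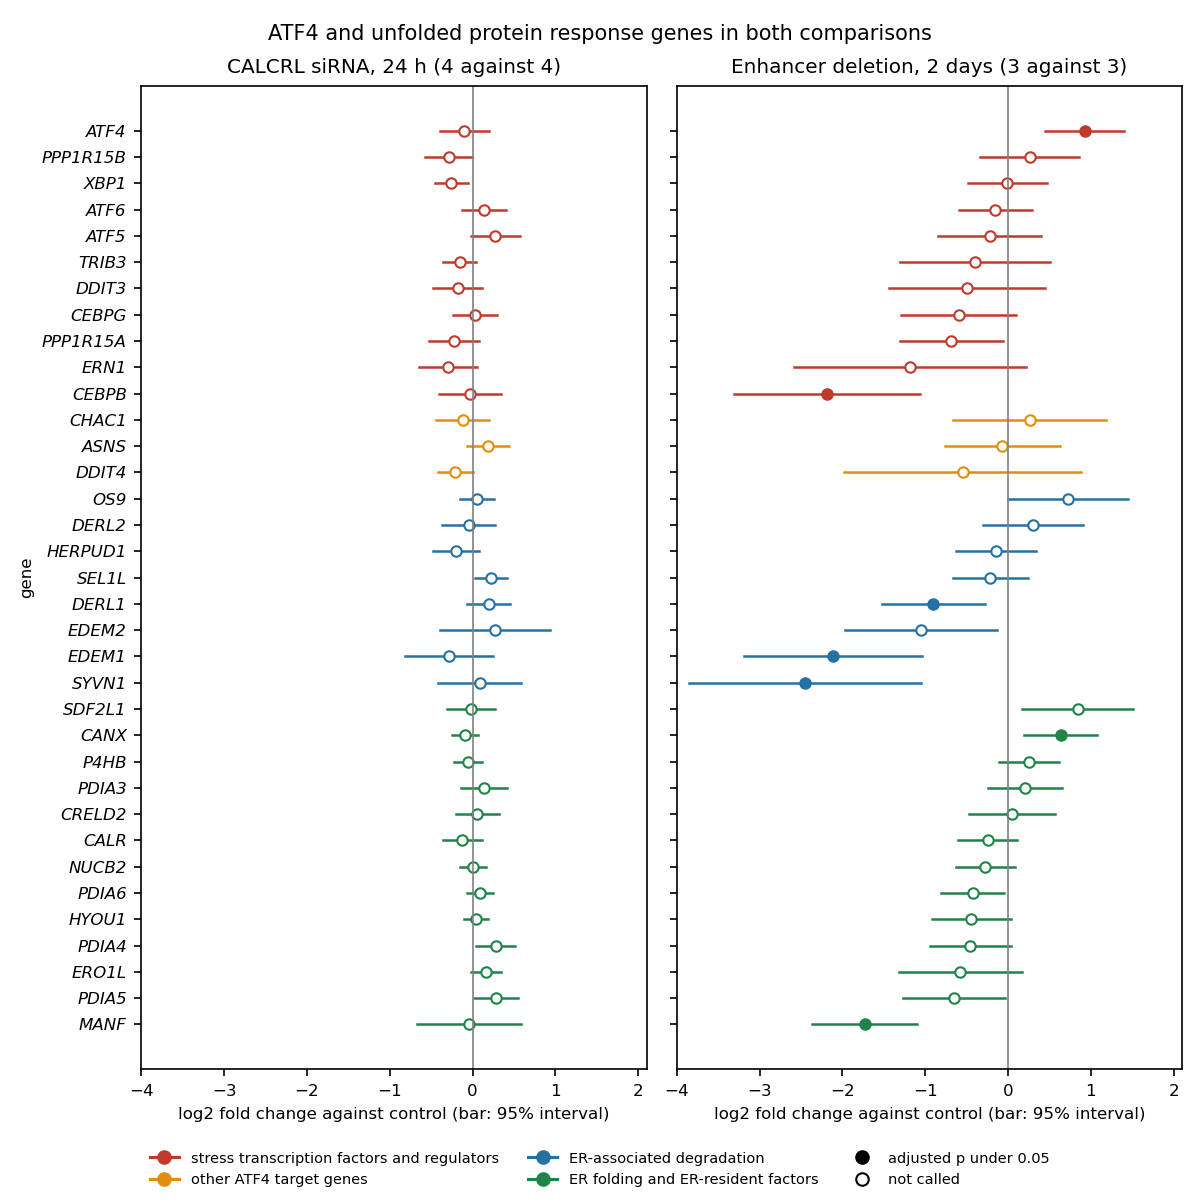
Log2 fold change against control (x axis) of each of the 35 genes (y axis), with siRNA on the left and enhancer deletion on the right; points are the deposited values, bars their 95% intervals, colours the role of the gene, and filled points are called at an adjusted p-value under 0.05. No point is filled under siRNA, and 7 are filled after deletion, 2 higher and 5 lower.

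After enhancer deletion, 7 of the 35 genes were called (20.0%), where 15.8% of all genes were, so the share of members called was near that of the table. ATF4 and CANX were higher, where 7.40% of all genes were. CEBPB, MANF, SYVN1, EDEM1 and DERL1 were lower, where 8.44% of all genes were. The median log2 fold change was -0.27 over the members, with 25 of 35 below 0, and 0.00 over all genes tested. With the trend of fold change on GC content of the last 500 transcript bases removed, the calls were 1 higher and 8 lower, against 3.35% and 8.47% of all genes. Removing that of the whole transcript left 8 members called, against 12.4% of all genes, and the trend of the last 500 bases 9, against 11.8%. Dividing the Wald statistics by their robust SD, or a Student t reference, left 0 members called, and 0.00% of all genes.

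Among the 11 transcription factors and their regulators, ATF4 alone was called higher and CEBPB alone lower after deletion. These 2 were 18.2% of the group, near the 15.8% called among all genes. ATF4 had a derived mean of 1072 normalised counts with the control guide and 2034 after deletion, which is 190% of control with a 95% interval from 136% to 264%. The authors' deposited table gave it a log2 fold change of 0.92 (SE 0.24, adjusted p-value 0.00394), and 123 of 11830 genes had a Wald statistic as high. With the GC trend of the last 500 bases removed ATF4 was at 0.65 (adjusted p-value 0.0607), no longer past the threshold, and with the trend of the whole transcript removed it was at 0.76 (adjusted p-value 0.0239). CEBPB, a bZIP factor of inflammation and of the stress response that pairs with ATF4, went from a derived mean of 91.3 to 20.1, or 21.99% of control (interval 10.1% to 47.7%). Its log2 fold change in the authors' deposited table was -2.19 (SE 0.57, adjusted p-value 0.00357).

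The other factors of this group were not called after deletion. DDIT3, the gene of the pro-apoptotic factor CHOP and a direct target of ATF4, was at -0.50 (SE 0.48) by the authors' deposited table, with derived means of 57.4 and 40.6. ATF5, a related factor under the same translational control, was at -0.22 (SE 0.32), and CEBPG, a partner of ATF4 in amino acid stress, was at -0.60 (SE 0.35) by the authors' deposited table. TRIB3, a pseudokinase that dampens ATF4, was at -0.40 (SE 0.46) there. ATF4 was thus called higher while none of these 4 genes was called in either direction. XBP1 was at -0.01 (SE 0.24) and changed sign with the GC trend of the last 500 bases removed, ATF6 was at -0.15 (SE 0.23), and ERN1 was at -1.19 (SE 0.71) with a mean of only 27.9 normalised counts, all in the authors' deposited table. PPP1R15A (GADD34), the stress-induced subunit that directs dephosphorylation of eIF2, was at -0.68 (SE 0.32, adjusted p-value 0.126), and its constitutive relative PPP1R15B was at 0.26 (SE 0.30) by the authors' deposited table. PPP1R15A has 63.0% GC in its last 500 bases, the highest among the members, and with that trend removed it was called lower at -1.41 (adjusted p-value 0.000587).

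**Figure D2:**
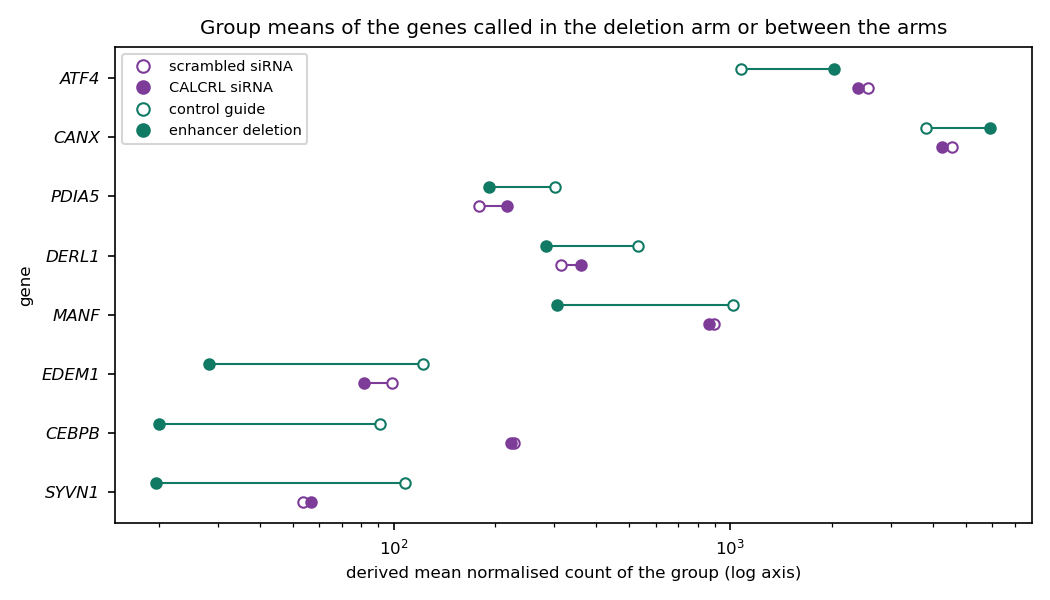
Derived mean normalised count (x axis, log scale) of each group for the 8 genes called after deletion or between the arms (y axis); open points are control groups, filled points treated groups, purple the siRNA arm and green the deletion arm. The open and filled green points of SYVN1, CEBPB and EDEM1 lie widest apart, from 108 to 19.7, from 91.3 to 20.1 and from 122 to 28.2 counts, while the purple pairs lie close together.

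The 3 other ATF4 target genes did not differ from control beyond their error. ASNS, the asparagine synthetase gene, was at -0.07 (SE 0.35) by the authors' deposited table, with derived means of 218 and 208. CHAC1, which degrades glutathione, was at 0.26 (SE 0.47) there, a sign that turned with either GC trend removed. DDIT4, an inhibitor of mTORC1 also known as REDD1, was at -0.55 in the authors' deposited table, with an SE of 0.73, which was 2.53 times the SE of genes of like mean count. Its interval, from 25.4% to 184% of control, leaves its direction unresolved.

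Of the 13 genes of ER folding and other ER-resident factors, 1 was called higher and 1 lower after deletion. That is 15.4% of the group, where 15.8% of all genes were called. CANX encodes calnexin, the membrane-bound lectin chaperone of newly made glycoproteins. Its derived mean went from 3819 to 5923 normalised counts, 155% of control with an interval from 115% to 210%, and the authors' deposited table gave 0.63 (SE 0.22, adjusted p-value 0.0348). CALR, the soluble lectin chaperone with the same substrates, was at -0.25 (SE 0.18, adjusted p-value 0.367) by the authors' deposited table, and its interval reached from 65.8% to 108%. With the GC trend of the last 500 bases removed CALR was called lower at -0.55 (adjusted p-value 0.0288). MANF, a small ER protein that is secreted under stress, was the lower gene: 1017 normalised counts with the control guide and 306 after deletion, or 30.1% of control (interval 19.4% to 46.8%). In the authors' deposited table MANF was at -1.73 (SE 0.32, adjusted p-value 1.75e-05), and 62 of the 11830 genes had a Wald statistic as low.

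The protein disulfide isomerases, which form and shuffle disulfide bonds, were not called in either arm. PDIA5 (-0.66, SE 0.31), PDIA4 (-0.46, SE 0.25) and PDIA6 (-0.43, SE 0.19) were below 0 after deletion in the authors' deposited table, with adjusted p-values from 0.110 to 0.202. PDIA3 (0.21, SE 0.23) and P4HB (0.25, SE 0.19) were above 0 there, although P4HB turned negative with either GC trend removed. ERO1L, the oxidase that recharges these enzymes, was at -0.58 (SE 0.38) by the authors' deposited table. SDF2L1, part of an ER chaperone complex, reached 0.84 (SE 0.34, adjusted p-value 0.0730), and with the GC trend of the last 500 bases removed it was at 0.21 (adjusted p-value 0.749). HYOU1, a large ER chaperone of the heat shock 70 class, was at -0.44 (SE 0.24, adjusted p-value 0.209) by the authors' deposited table and was called lower with that trend removed (-0.73, adjusted p-value 0.0301). CRELD2, an ER protein induced by stress, was at 0.05 (SE 0.26), a sign that also turned with either GC trend removed, and NUCB2, a calcium-binding protein and the precursor of nesfatin, was at -0.27 (SE 0.18) by the authors' deposited table.

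Of the 8 genes of ER-associated degradation, 3 were called lower after deletion and 0 higher, where 8.44% and 7.40% of all genes were. Their median log2 fold change was -0.56. SYVN1 encodes HRD1, the ubiquitin ligase at the centre of this pathway. It had a derived mean of 108 normalised counts with the control guide and 19.7 after deletion, 18.2% of control with an interval from 6.92% to 48.1%, and the authors' deposited table gave -2.45 (SE 0.71, adjusted p-value 0.00937). EDEM1, which delivers mannose-trimmed glycoproteins for degradation, went from 122 to 28.2, or 23.1% of control (interval 11.0% to 48.5%), with -2.12 (SE 0.55, adjusted p-value 0.00321) by the authors' deposited table. DERL1, a membrane protein of the retrotranslocation channel, went from 530 to 284, or 53.6% of control, with -0.90 (SE 0.32, adjusted p-value 0.0351) by the authors' deposited table. With the GC trend of the last 500 bases or of the whole transcript removed, DERL1 was at -0.77 and -0.85 and lost its call at adjusted p-values of 0.0898 and 0.0566. SYVN1, EDEM1, MANF and CEBPB passed the threshold with either removed.

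The remaining genes of this group were not called. EDEM2, which trims the first mannose, was at -1.05 (SE 0.47, adjusted p-value 0.106) by the authors' deposited table and was called lower with the GC trend of the last 500 bases removed (-1.34, adjusted p-value 0.0405). SEL1L, the partner that stabilises HRD1, was at -0.21 (SE 0.23) by the authors' deposited table, against the -2.45 of SYVN1. HERPUD1, an HRD1 cofactor that carries both an ER stress element of the second form and a C/EBP-ATF element in its promoter, was at -0.15 (SE 0.25), OS9, a lectin of the complex, at 0.72 (SE 0.37), and DERL2 at 0.30 (SE 0.31) by the authors' deposited table.

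The 5 genes with the full ER stress element and the 3 with its second form had no common direction after deletion. In the authors' deposited table CANX was called higher, while XBP1, CALR, PDIA6, CRELD2, HERPUD1, HYOU1 and SDF2L1 were not called, at values from -0.44 (HYOU1) to 0.84 (SDF2L1). Of the 5 genes called lower, MANF, SYVN1, EDEM1 and CEBPB had none of these elements in the windows searched, and no promoter was matched for DERL1. No match says only that these letters are not in these windows.

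The effects of the 2 treatments were compared for each gene from the deposited fold changes and SEs, with Benjamini-Hochberg adjustment over 10891 genes. They differed in 8 of the 35 members (22.9%), where 13.7% of all genes differed, 7.22% with the higher value under siRNA and 6.49% with the lower. With the GC trend of the last 500 bases or of the whole transcript removed, 10 members differed in each case, against 10.8% and 11.2% of all genes. With the siRNA value taken minus the deletion value, the differences were 2.54 (SE 0.76, adjusted p-value 0.0136) for SYVN1, 2.16 (SE 0.60, adjusted p-value 0.00799) for CEBPB and 1.83 (SE 0.61, adjusted p-value 0.0274) for EDEM1. For MANF the difference was 1.68 (SE 0.46, adjusted p-value 0.00615), and for DERL1 it was 1.09 (SE 0.34, adjusted p-value 0.0196). All 5 were at lower values after deletion than under siRNA. ATF4 (-1.02, SE 0.29, adjusted p-value 0.00819) and CANX (-0.73, SE 0.24, adjusted p-value 0.0232) differed the other way, and ATF4 was no longer past the threshold with the GC trend of the last 500 bases removed (adjusted p-value 0.0609). PDIA5 differed by 0.94 (SE 0.34, adjusted p-value 0.0459) although it was called in neither arm: the authors' deposited tables gave it 0.28 (SE 0.13) under siRNA and -0.66 (SE 0.31) after deletion. The arms also differ in delivery, time and control, which cannot be told apart from the treatments. As in the deletion arm, 0 members differed with the difference statistics divided by their robust SD or with a Student t reference, and 0.00% of all genes did.

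The deletion calls were set beside the spread of the same genes in the siRNA arm, measured as the siRNA SE over the median SE of genes of like mean count. Over all genes in both tables, the share called lower after deletion was 4.45% of 5437 genes with a ratio up to 1, 9.38% of 4955 with a ratio from 1 to 1.5, 42.1% of 285 with a ratio from 1.5 to 2, and 67.3% of 214 above 2. Among the members, MANF had a ratio of 3.21, higher than that of 99.5% of genes. EDEM2 was at 1.65, EDEM1 at 1.501, ATF4 at 1.47 and CEBPB at 1.40, while SYVN1 (1.16), DERL1 (1.10) and CANX (0.777) were closer to or below 1. The part of this spread in the deletion values was not tested.

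**Figure D3:**
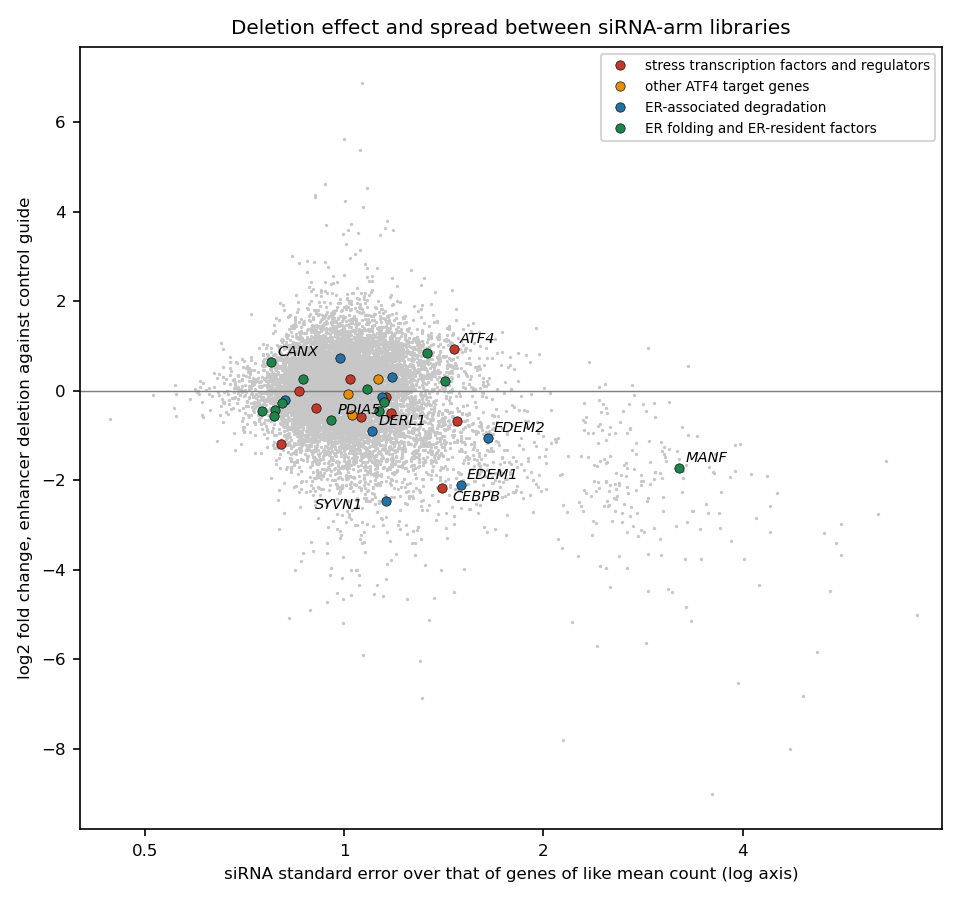
Log2 fold change after enhancer deletion (y axis) against the siRNA standard error relative to genes of like mean count (x axis, log scale); grey points are the 10891 genes in both tables and coloured points the 35 members by role. MANF lies at a ratio of 3.21 among genes that are mostly lower after deletion, and SYVN1 and DERL1 lie at 1.16 and 1.10.

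Fold change after deletion also rose with the GC content of the transcript end. Over 10 groups of genes by GC content, the median went from -0.26 at the low end (22.2% to 30.2% GC) to 0.62 at the high end (57.9% to 78.0%). ATF4 has 50% GC in its last 500 bases, CANX 37.4%, SYVN1 48.4%, MANF 45.2%, CEBPB 42.4%, DERL1 33.8% and EDEM1 31.8%. CANX therefore lay above genes of its GC content by more than its deposited value, and with the trend removed it was at 0.72 (adjusted p-value 0.0178).

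**Figure D4:**
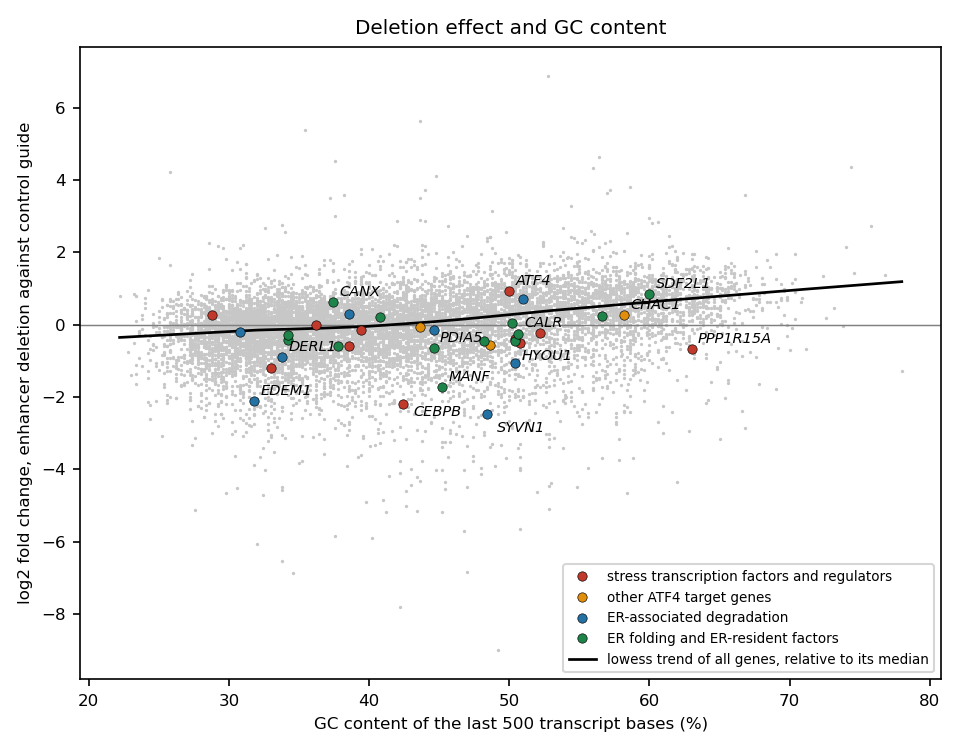
Log2 fold change after enhancer deletion (y axis) against GC content of the last 500 transcript bases in percent (x axis); grey points are genes in both tables, coloured points the members by role, and the black line the lowess trend of all genes relative to its median. The trend rises with GC content, and PPP1R15A at 63.0% GC and SYVN1, CEBPB, MANF and EDEM1 lie well below it.

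Many members share exon bases with another annotated gene, and the labels do not state whether counting used the strand. In GENCODE 29, SYVN1 (chr11:65121780-65134533, minus strand) shares 398 exon bases with FAU on the same strand and 356 with MRPL49 on the opposite one. CEBPB (chr20:50190734-50192689, plus strand) shares 231 with the antisense gene CEBPB-AS1, EDEM1 (chr3:5187646-5219957, plus strand) 653 with an antisense gene, and DERL1 396 with TBC1D31 on the opposite strand. PDIA5 shares 490 with SEC22A on the same strand, and CANX 150 with CBY3 on the opposite one. Among members not called, ASNS shares 1985 with a processed transcript on the same strand. ATF5 shares 626 with NUP62 and DDIT3 355 with MARS, both on the opposite strand. Further members not named here also overlap other genes. MANF (chr3:51385047-51389397, plus strand) and ATF4 (chr22:39519695-39522685, plus strand) share none, although 4 ATF4 pseudogenes are annotated elsewhere. PDIA3 has a processed copy, PDIA3P1, which was listed only in the deletion table with a mean of 11.1 normalised counts, against 2335 for PDIA3.

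The wider pathway was followed in 165 further gene names in 6 lists, with 152 tested under siRNA and 150 after deletion. Under siRNA 9 were called (5.92%, against 3.46% of all genes), 2 higher and 7 lower, and after deletion 22 were called (14.7%, against 15.8%), 10 higher and 12 lower. The major ER chaperone genes HSPA5 (BiP) and HSP90B1 (GRP94) were called in neither arm: in the authors' deposited tables HSPA5 was at -0.12 (SE 0.08) under siRNA and 0.36 (SE 0.18) after deletion, and HSP90B1 at 0.09 (SE 0.07) and 0.09 (SE 0.20). EIF2AK3, the gene of PERK, was at -0.18 (SE 0.34) and -1.0 (SE 0.63) there, and DNAJB9, an XBP1 target, at -0.20 (SE 0.16) and -1.36 (SE 0.67), neither called. DNAJC3, a co-chaperone that inhibits PERK, was at 0.13 (SE 0.09) and -0.60 (SE 0.24), and SESN2, a stress-induced regulator of mTORC1, at -0.12 (SE 0.14) and 0.42 (SE 0.29) by the authors' deposited tables, also not called.

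The 7 pathway genes called lower under siRNA spanned several roles. PPIB, an ER prolyl isomerase, was at -0.96 (SE 0.20) by the authors' deposited table, and UBAC2, an ER membrane protein of degradation, at -0.89 (SE 0.14). UGGT1, the glucosyltransferase that returns misfolded glycoproteins to calnexin, was at -0.57 (SE 0.13), SHMT2, a mitochondrial serine enzyme, at -0.48 (SE 0.11), and SLC7A11, the cystine transporter, at -0.45 (SE 0.10) by the authors' deposited table. STT3B, a catalytic subunit of oligosaccharyltransferase, was at -0.38 (SE 0.08), and LMAN1, a cargo receptor from ER to Golgi, at -0.28 (SE 0.09) by the authors' deposited table. CALU, a calcium-binding ER protein (0.57, SE 0.12), and MBTPS1, the protease that cleaves ATF6 (0.43, SE 0.12), rose in the authors' deposited table. LMAN1 lost its call with the GC trend of the last 500 bases or of the whole transcript removed, at -0.26 and -0.27 with adjusted p-values of 0.0744 and 0.0565, and with a Student t reference only 5 genes of the whole siRNA table were called.

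All 7 of these lower genes carry the word GTAACAA in the 3' UTR, a word chosen in an earlier analysis for its link to lower values in this same siRNA table, so that its presence is a description and no test. It was found in the longest 3' UTR of 10.3% of the 10638 siRNA-arm genes with a 3' UTR, and of 58.3% of the 266 of these that were called lower. Each site is shown as 27 bases of the transcript with the word in capitals.
PPIB: actcacttttGTAACAAactcctacca
UBAC2: cctacatctaGTAACAAagaatggtga
UGGT1: ctttctcttgGTAACAAaaatggaggg
SHMT2: cctttttttgGTAACAAgacttagaag
SLC7A11: tggactgaagGTAACAAtattttaatg
STT3B: caaaagacttGTAACAActttgcctgg
LMAN1: tgtgattatgGTAACAAtttatatcag
PDIA3: actttcttttGTAACAAtgaggaacag
PDIA3 was the only one of the 35 members with the word (2.86%), and it was at 0.14 (SE 0.14) under siRNA in the authors' deposited table, not called. Of the other pathway genes, 23 carried the word, of which 7 were called lower, and 129 did not, of which 0 were called lower. Called or not, the siRNA value was below 0 in 15 of the 23 and in 66 of the 129.

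After deletion the called pathway genes went both ways in 4 of the 6 lists. The 3 called ER chaperone and co-chaperone genes all fell, and were 10% of the 30 tested, against 15.8% of all genes. In the list of sensors and eIF2 kinases, 0 of 17 genes were called by the authors' DESeq2 test. At an unadjusted p-value under 0.05 by that test there were 3, which is 17.6% against 29.7% of all genes. Calls made up 30% of the 10 eIF2 and eIF2B genes, 22.7% of the 22 oxidoreductase and prolyl isomerase genes and 17.1% of the 41 degradation genes. EIF2B3 and EIF2B4, subunits of the exchange factor that recycles eIF2, rose by 1.17 (SE 0.29) and 1.22 (SE 0.45) by the authors' deposited table. EIF2B4 was no longer called with the GC trend of the last 500 bases removed (0.85, adjusted p-value 0.203). EIF2D, a factor of non-canonical initiation, fell by 3.10 on the log2 scale (SE 0.69) there, with a siRNA SE ratio of 3.44. In the ATF4 amino acid list, PHGDH (1.16, SE 0.40), SHMT2 (1.01, SE 0.26) and CBS (0.81, SE 0.29), enzymes of serine, one-carbon and sulfur amino acid metabolism, rose in the authors' deposited table, and VLDLR, a lipoprotein receptor, fell (-0.90, SE 0.32). These 4 were 13.3% of the 30 genes tested in that list, against 15.8% of all genes, and all 4 lost the threshold with the GC trend of the last 500 bases removed, at 0.59 for PHGDH, 0.68 for SHMT2, 0.66 for CBS and -0.79 for VLDLR. SHMT2 differed between the arms by -1.49 (SE 0.28, adjusted p-value 5.13e-05), lower under siRNA and higher after deletion.

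Among ER folding genes, ERP44 (-1.68, SE 0.31) and TXNDC11 (-2.66, SE 0.71), both thioredoxin-family proteins, and FKBP9 (-1.76, SE 0.52), a prolyl isomerase, fell after deletion by the authors' deposited table, while ERP29 (0.75, SE 0.26) and TMX2 (0.62, SE 0.22) rose. SEC62 (-0.75, SE 0.25), SERP1 (-0.70, SE 0.21) and SDF2 (-1.83, SE 0.61), which act in translocation into the ER and in chaperone complexes, fell there. In the degradation machinery, UBQLN1 (-1.68, SE 0.34), ERLIN1 (-1.15, SE 0.36) and EDEM3 (-1.12, SE 0.33) fell and RHBDD2 (1.47, SE 0.48), AUP1 (1.03, SE 0.30) and UBXN6 (1.02, SE 0.35) rose in the authors' deposited table. ERLIN1 had a siRNA SE ratio of 3.01, SDF2 of 1.78 and ERP44 of 1.60. The 3 genes of this machinery that rose lost the threshold with the GC trend of the last 500 bases removed, at 0.92 for RHBDD2, 0.56 for AUP1 and 0.38 for UBXN6. EDEM3 (-0.91), TMX2 (0.57), SEC62 (-0.61) and SERP1 (-0.55) also lost it, with values nearer to those deposited.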

How the data were processed

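Sequencing read transcript 3' ends (QuantSeq FWD) in single-end runs of 86 cycles, per the labels' protocols. The file names refer to featureCounts and DESeq2, and the submitters' processing notes name hg19 and edgeR 3.24.3 without a role. The aligner, annotation and strand setting are not given in the sources used here. The authors deposited 1 table per arm with a mean normalised count, a log2 fold change, its SE, a Wald score and its p-value and adjusted p-value for each gene. Each deposited Wald score equalled the fold change over its SE, and each adjusted p-value the Benjamini-Hochberg value over the table. No p-value was given for 5 genes after deletion. The depth per library is unknown.

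From these values, group means were derived from the mean count and fold change, taking the groups as equal in size, and 95% intervals from the SE and a normal quantile. The arms were compared by a z-test of the difference of fold changes with both SEs. It was run on simulated data that drew normal errors with the deposited SEs. That run took the SEs as correct, so it could not show whether they fit the real data. The SE ratio divides an SE by the running median of 201 genes of like mean count. GC content came from GENCODE 29 transcripts (GRCh38), which were matched for 11099 siRNA-arm and 11625 deletion-arm genes, with a lowess span of 0.3. The alternatives were Wald statistics divided by their robust SD, a Student t reference with 6 or 4 degrees of freedom, fold changes centred on the median, removal of either GC trend, a mean of at least 50 counts, and genes in both tables.

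The members and lists were chosen with earlier results of these data known. Every member called in either arm or in the difference was named with its values, as were 13 members listed by name, the called pathway genes (1 is not reported here) and HSPA5, HSP90B1, EIF2AK3, DNAJB9, DNAJC3 and SESN2. Python 3.11.15, numpy 2.4.6, pandas 2.3.3, scipy 1.17.1 and statsmodels 0.14.6 were used.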

Additional observations from a re-analysis of the deposited data

Results flagged for a closer look

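In 8 of the 35 genes (22.9%) the effects of siRNA and of enhancer deletion differed, where 13.7% of all genes differed. The test was the z-test of the difference (siRNA minus deletion, adjusted over 10891 genes). SYVN1 differed by 2.54, CEBPB by 2.16, EDEM1 by 1.83, MANF by 1.68, DERL1 by 1.09 and PDIA5 by 0.94 on the log2 scale, each lower after deletion. ATF4 differed by -1.02 and CANX by -0.73, each higher after deletion. Delivery, sampling time and the kind of control differ along with the target, which cannot be told apart from these values.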

How the results depend on the processing

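Under siRNA, 0 members were called in each of the 7 alternatives, which called 0.0444% to 4.71% of all genes. In the deletion arm, 7 members were called at first (20.0%, against 15.8% of all genes). With the statistics divided by their robust SD, or with a Student t reference, 0 members and 0.00% of all genes were called. The robust SD of the Wald statistics was 1.88 in the deletion arm and 1.11 in the siRNA arm. For the difference between arms, 8 members (22.9%, against 13.7% of all genes) became 0 in either setting, with 0.00% of all genes. The cause of these losses was not tested. With the GC trend of the last 500 bases removed, 9 members were called after deletion, of which 5 were among the original 7. With that of the whole transcript removed there were 8, of which 6 were. The shares of all genes were 11.8% and 12.4%. Signs turned in genes that were not called. With the GC trend of the last 500 bases or of the whole transcript removed, the deletion values became -0.31 and -0.27 for CHAC1, -0.24 and -0.42 for CRELD2 and -0.26 and -0.14 for P4HB, and the first setting gave 0.091 for XBP1. The differences became 0.17 and 0.14 for CHAC1 and 0.19 and 0.069 for P4HB, and 0.028 for HERPUD1 in the first setting. NUCB2 under siRNA became 0.013 and 0.015. No paired analysis was possible because the deposited tables hold no value per library, and for the same reason no library could be left out in turn. At the median SE of the members, log2 changes under 0.42 (siRNA) and 0.84 (deletion) could not be called.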
